A study of Mus musculus with 7 samples.

Results

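Interleukin-2 (IL-2), its receptor and the JAK-STAT5 route it signals through were examined at the RNA level in CD8+ T cells exposed to small extracellular vesicles (sEVs). The 10 genes were chosen by symbol among the 55367 genes of the count table: the cytokine gene *Il2*, the receptor chains *Il2ra*, *Il2rb* and *Il2rg*, the kinases *Jak1* and *Jak3*, the transcription factors *Stat5a* and *Stat5b*, and the STAT5 target genes *Cish* and *Socs2*. All 10 had enough counts to be tested. CD8+ T cells were sorted by flow cytometry from spleens of Foxp3 YFP/cre mice, a strain in which the *Foxp3* locus drives a fluorescent protein and Cre, so every library would carry this allele. In their passage on culture, however, the methods describe isolation of CD8+ T cells by negative selection, and name this strain for isolating regulatory T cells. The cells were then kept for 48 hours with one of 2 kinds of sEVs. The 4 HCME-sEV libraries received sEVs of the healthy spleen microenvironment and the 3 LME-sEV libraries received sEVs of the leukemic one, taken from spleens of Eμ-*TCL1* mice, in which an enhancer of B cells drives a human *TCL1* transgene and leukemia develops. These group sizes follow the sample annotation, and 1 figure legend of the study gives them the other way round. Each of the 7 cultures is annotated with 100 μg/ml of sEVs, whereas the methods describe an amount set by what each kind of spleen holds. For CD8+ T cells in culture the methods describe wells coated with anti-CD3, an anti-CD28 antibody and IL-2 added to the medium, so the receptor had ligand other than that made by the cells. No library without sEVs was analysed here. Neither source states that the libraries of a group came from separate animals or cultures, so the spread behind each p-value may be technical.

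IL-2 is made by T cells upon antigen receptor stimulation and acts on the same or neighboring cells. The beta and gamma chains (*Il2rb*, *Il2rg*) carry the signal and the alpha chain (*Il2ra*, CD25) raises affinity for the ligand. The kinases JAK1 and JAK3, bound to the beta and gamma chains, phosphorylate STAT5A and STAT5B, which enter the nucleus and switch on target genes. Among these are *Il2ra* itself and the inhibitors *Cish* and *Socs2*, which act back on cytokine signaling. In CD8+ T cells the route supports growth, survival and the making of cytotoxic proteins, and it holds back genes of memory cells such as *Bcl6* and *Il7r*.

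Promoter stretches of *Il2*, *Il2ra* and *Cish*, which fell, are shown first, because the data bear on the RNA made from them. The sequences are of RefSeq on GRCm38, 5′ to 3′ on the strand of the gene, and positions are counted from the RefSeq start site. For *Il2* (chr3:37125960-37126204, minus strand, positions -250 to -6) and *Il2ra* (chr2:11642542-11642791, plus strand, positions -250 to -1), capitals mark the core GGAAA bound by NFAT, the factor of T-cell activation, on either strand. For *Cish* (chr9:107296655-107296684, plus strand, positions -4 to 26), capitals mark GAS elements, the STAT5 binding motif TTCNNNGAA. The *Il2* and *Il2ra* stretches held no annotated exon base of GENCODE vM21, whereas all 30 *Cish* bases lie in an exon of a transcript that starts further upstream.
Il2: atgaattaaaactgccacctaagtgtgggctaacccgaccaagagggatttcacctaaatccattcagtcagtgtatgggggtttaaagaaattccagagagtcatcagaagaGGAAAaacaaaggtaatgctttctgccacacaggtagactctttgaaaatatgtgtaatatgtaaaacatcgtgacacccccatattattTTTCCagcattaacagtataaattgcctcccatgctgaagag
Il2ra: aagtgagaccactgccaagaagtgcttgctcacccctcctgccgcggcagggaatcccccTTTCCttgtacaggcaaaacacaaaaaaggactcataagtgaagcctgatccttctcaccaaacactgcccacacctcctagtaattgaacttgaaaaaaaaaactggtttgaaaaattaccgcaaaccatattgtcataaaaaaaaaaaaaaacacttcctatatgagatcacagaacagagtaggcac
Cish: agttTTCCTGGAAagTTCTTGGAAatctgt

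RefSeq windows of 300 bases, 250 before and 50 after a start, were at hand for 8 of the 10 genes, *Il2rb* and *Socs2* being the others. Of these 8 genes only *Cish* held the GAS motif, which begins at positions 1 and 12 and is its own reverse complement in pattern, and 8.30% of all 32851 windows held at least 1 such motif. The NFAT core was found in 61.3% of all windows, at positions -137 and -47 of *Il2* and -190 of *Il2ra*. It was found 4 times in the *Cish* window, 3 of them overlapping a GAS element. The NFAT core was not particular to the genes that fell. It was also in windows of *Jak3*, *Stat5a*, *Stat5b* and *Il2rg*, and *Jak1* alone lacked it. TGANTCA, the AP-1 motif searched on both strands, was in none of the windows of the 8 genes and in 7.81% of all. These are matches of letters and no binding was measured.

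Depth was similar across libraries, with 3689831 to 5030522 counts, and 3 counts, taken as the least that can be shown, stood for 0.582 to 0.807 CPM (counts scaled to a common library size, with TMM normalization of edgeR). TMM factors were 0.965 to 1.002 in HCME-sEV libraries and 1.011 to 1.03 in LME-sEV libraries. Among 12623 tested genes, the quasi-likelihood test of edgeR, at a Benjamini-Hochberg FDR under 0.05, called 658 genes (5.21%) lower and 473 (3.75%) higher with LME-sEVs. With library size alone for scaling the split was 465 lower and 614 higher. The median log2 fold change of all tested genes was 0.01, and a DEG also needed a log2 fold change beyond 1, which held for 162 genes (1.28%).

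Of the 10 genes, 4 fell with LME-sEVs (*Il2*, *Il2ra*, *Cish* and *Socs2*) and 1 rose (*Stat5b*), beside 5.21% and 3.75% of all tested genes. The other 5 (*Il2rb*, *Il2rg*, *Jak1*, *Jak3* and *Stat5a*) did not pass the test. These 5 called genes were also the ones whose libraries did not overlap between groups, 4 lower and 1 higher, beside 10.8% and 9.49% of all tested genes. For each of them a two-sided exact permutation test gave p = 0.0286, the smallest that 4 against 3 libraries allow. This p was not adjusted over the 10 genes. The genes that fell were the ligand, the inducible receptor chain and both feedback targets, whereas the signaling chains, the kinases and *Stat5a* gave no call. *Il2* alone was a DEG with all libraries, beside 1.28% of all tested genes, and the median log2 fold change over the 10 was -0.11.

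**Figure D1:**
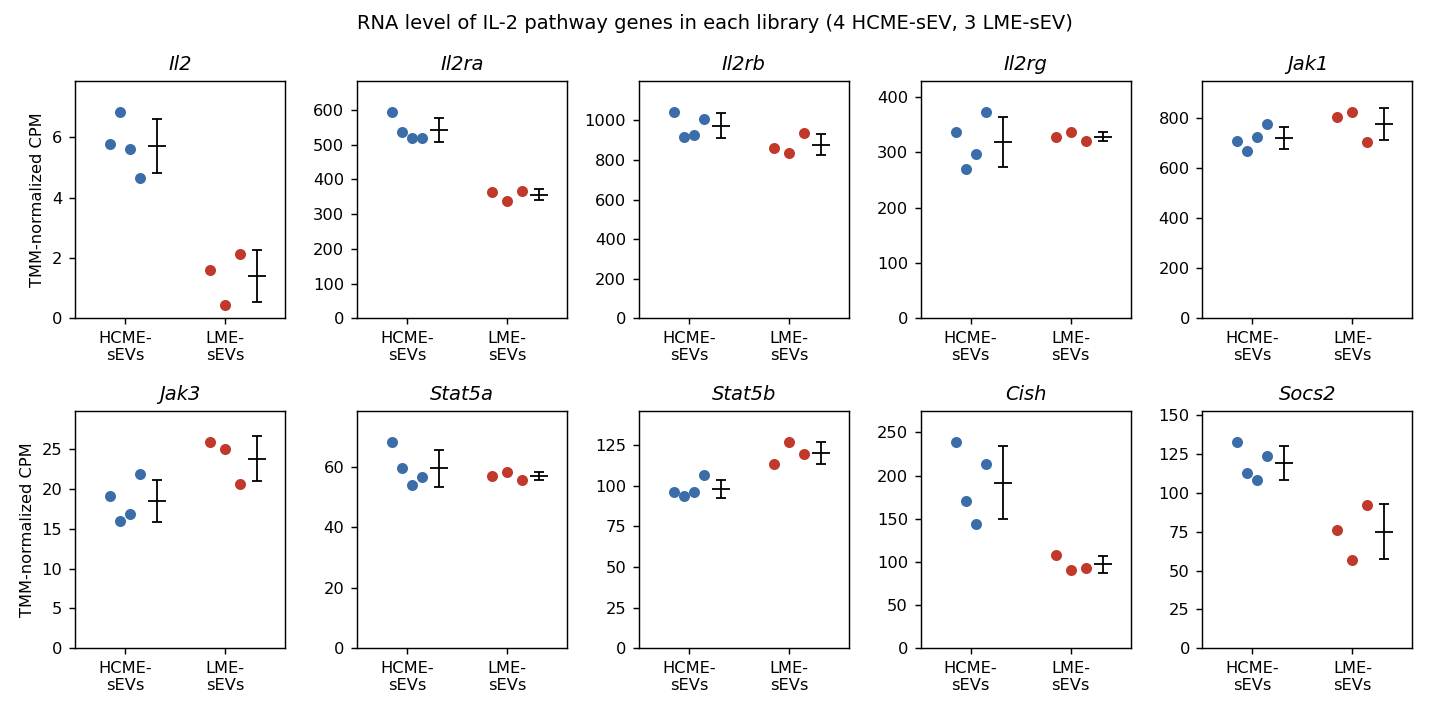
Level of each of the 10 genes in every library, as TMM-normalized CPM on linear axes that start at 0 (blue, 4 HCME-sEV libraries; red, 3 LME-sEV libraries), with the mean and SD beside the points. The groups do not overlap for *Il2*, *Il2ra*, *Cish* and *Socs2*, which are lower in the LME-sEV libraries, and for *Stat5b*, which is higher.

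*Il2*, the ligand (ENSMUSG00000027720.7, chr3:37120523-37125959 on GRCm38, minus strand, protein-coding), was close to the least that can be counted. Its raw counts were 24, 27, 21 and 20 in HCME-sEV libraries 1 to 4 and 6, 2 and 11 in LME-sEV libraries 1 to 3. In CPM these were 5.78, 6.84, 5.60 and 4.66 with HCME-sEVs and 1.61, 0.449 and 2.13 with LME-sEVs. Every LME-sEV library was below every HCME-sEV library, and LME-sEV library 2, with 2 counts, was under the 3 counts taken as the least that can be shown. The level was 5.72 ± 0.896 CPM (SD, n = 4) against 1.40 ± 0.862 CPM (SD, n = 3), a log2 fold change of -1.98 (SE 0.385, 95% interval -2.79 to -1.18, edgeR FDR = 0.00302). That is 3.96-fold lower, and *Il2* stayed called when any single library was left out, at -2.50 to -1.57 on the log2 scale. The last part of the *Il2* transcript was 99.5% identical over 207 bases to that of *Ntan1*, so reads there could be given to either gene. *Ntan1*, which encodes an amidase that acts on protein N-termini, had 161 to 217 counts, with a log2 fold change of -0.12 (edgeR FDR = 0.535). In bulk RNA, fewer cells that make a transcript and less of it per cell cannot be told apart.

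*Il2ra*, the alpha chain (chr2:11642807-11693193, plus strand), fell and had the smallest spread relative to its mean among the genes that fell. Its level was 595, 538, 520 and 519 CPM in HCME-sEV libraries 1 to 4 and 365, 338 and 366 CPM in LME-sEV libraries 1 to 3. The lowest HCME-sEV library stood above the highest LME-sEV library by more than either group's own range. The level fell by 34.3% with LME-sEVs, a log2 fold change of -0.61 (SE 0.0764, 95% interval -0.77 to -0.45, edgeR FDR = 1.06e-04), short of the cutoff of 1 that defines a DEG.

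*Il2rb*, the beta chain (chr15:78479256-78495271, minus strand), which IL-2 shares with IL-15, gave no call. It stood at 1042, 918, 925 and 1009 CPM with HCME-sEVs and at 860, 835 and 936 CPM with LME-sEVs. The groups overlapped, since LME-sEV library 3 lay above HCME-sEV libraries 2 and 3. The log2 fold change was -0.15 (SE 0.0758, 95% interval -0.31 to 0.01, edgeR FDR = 0.247), and the two-sided exact permutation p was 0.171. *Il2rg*, the gamma chain shared by several cytokine receptors (chrX:101264378-101268255, minus strand), stood at 337, 269, 297 and 373 CPM with HCME-sEVs and at 327, 336 and 320 CPM with LME-sEVs. All 3 LME-sEV libraries lay inside the range of the HCME-sEV libraries, with a log2 fold change of 0.04 (SE 0.0923, 95% interval -0.15 to 0.23, edgeR FDR = 0.854).

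Set against each other within a library, the alpha and beta chains gave a log2 ratio that does not depend on how libraries are scaled. The ratio of *Il2ra* to *Il2rb* was -0.84 ± 0.082 (SD, n = 4) with HCME-sEVs and -1.30 ± 0.058 (SD, n = 3) with LME-sEVs, a difference of -0.45. The groups did not overlap (two-sided exact permutation test, p = 0.0286), but with adjustment over the 5 ratios compared p was 0.0952. The ratio of *Il2rb* to *Il2rg* differed by -0.20 (exact permutation test, p = 0.143, adjusted 0.179). No ratio passed 0.05 after adjustment, which with 7 libraries the test could reach only if several ratios gave its smallest p.

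**Figure D2:**
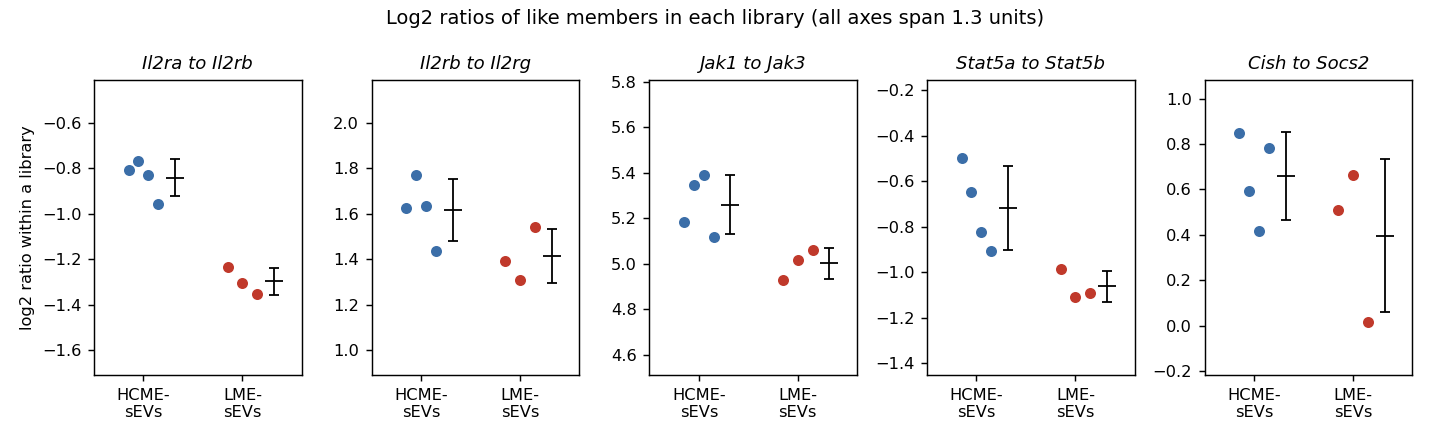
Log2 ratio of like members within each library (blue, 4 HCME-sEV libraries; red, 3 LME-sEV libraries), with the mean and SD beside the points and axes of equal span. The groups do not overlap for *Il2ra* to *Il2rb*, *Jak1* to *Jak3* and *Stat5a* to *Stat5b*, and overlap for the other 2 ratios.

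*Jak1*, the kinase bound to the beta chain (chr4:101152367-101265282, minus strand), had 709, 669, 724 and 776 CPM with HCME-sEVs and 801, 823 and 702 CPM with LME-sEVs. LME-sEV library 3 was among the HCME-sEV libraries while the other two were above them, and the log2 fold change of 0.11 (SE 0.0781, 95% interval -0.06 to 0.27) gave no call (edgeR FDR = 0.454). *Jak3*, the kinase bound to the gamma chain and largely restricted to blood cells (chr8:71676296-71690575, plus strand), was counted 63 to 111 times in a library. It had 19.0, 16.0, 16.8 and 21.9 CPM with HCME-sEVs and 25.8, 24.9 and 20.6 CPM with LME-sEVs. LME-sEV library 3 lay below HCME-sEV library 4, and the log2 fold change was 0.35 (SE 0.146, 95% interval 0.05 to 0.66, edgeR FDR = 0.144; two-sided exact permutation p = 0.0857). The ratio of *Jak1* to *Jak3* did not overlap between groups and differed by -0.26 on the log2 scale (exact permutation test, p = 0.0571, adjusted 0.0952).

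*Stat5a* and *Stat5b* are neighbors on chromosome 11 (chr11:100859351-100885169, plus strand, and chr11:100780731-100850724, minus strand) and encode closely related factors that both serve the IL-2 receptor. *Stat5b* rose with LME-sEVs, with 96.4, 93.5, 96.3 and 106 CPM in HCME-sEV libraries and 113, 127 and 119 CPM in LME-sEV libraries. All LME-sEV libraries were above all HCME-sEV libraries, with HCME-sEV library 4 the nearest. The level was 22.1% higher, a log2 fold change of 0.29 (SE 0.0838, 95% interval 0.11 to 0.46, edgeR FDR = 0.0355). The call was lost without HCME-sEV library 1 (edgeR FDR = 0.0533), 2 (FDR = 0.112) or 3 (FDR = 0.0511), or LME-sEV library 2 (FDR = 0.178) or 3 (FDR = 0.114), while the fold change stayed positive.

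*Stat5a* had 68.2, 59.6, 54.1 and 56.6 CPM with HCME-sEVs and 57.0, 58.4 and 55.8 CPM with LME-sEVs. The LME-sEV libraries lay within the range of the HCME-sEV libraries, of which library 1 was the highest. The log2 fold change was -0.06 (SE 0.0994, 95% interval -0.27 to 0.14, edgeR FDR = 0.768). The last 72 bases of *Stat5a* (chr11:100885098-100885169) overlap the end of *Stat3* on the other strand. *Stat3*, which transmits signals of IL-6 and IL-10, had 1936 to 3493 counts against 203 or more of *Stat5a*. Whether counting used the strand is not given in the sources used here, so *Stat5a* counts are uncertain. The ratio of *Stat5a* to *Stat5b* went from -0.72 ± 0.18 (SD, n = 4) to -1.06 ± 0.068 (SD, n = 3) without overlap (two-sided exact permutation test, p = 0.0571, adjusted 0.0952).

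*Cish*, which encodes a cytokine-induced inhibitor with an SH2 domain (chr9:107296026-107302784, plus strand), fell to about 50% of its level. It had 239, 171, 145 and 213 CPM in HCME-sEV libraries and 109, 90.3 and 93.5 CPM in LME-sEV libraries. The HCME-sEV libraries ranged widely, from 145 to 239 CPM, yet the lowest was above every LME-sEV library. The level fell by 49.3%, a log2 fold change of -0.98 (SE 0.130, 95% interval -1.25 to -0.71, edgeR FDR = 1.47e-04), just short of the cutoff for a DEG. It passed the cutoff, as a DEG beside *Il2*, without HCME-sEV library 2 (log2 fold change -1.03) or 3 (-1.09) or LME-sEV library 1 (-1.06). *Cish* was the gene with 2 GAS elements beside its start in the stretch printed above.

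*Socs2*, a suppressor of cytokine signaling best known for limiting growth hormone responses (chr10:95385362-95417180, minus strand), had 133, 113, 108 and 124 CPM in HCME-sEV libraries and 76.1, 56.9 and 92.3 CPM in LME-sEV libraries. All LME-sEV libraries were lower, and they differed more among themselves than the HCME-sEV libraries did. The level fell by 36.9%, a log2 fold change of -0.66 (SE 0.122, 95% interval -0.92 to -0.41, edgeR FDR = 0.00202). Copies similar to the end of *Socs2*, *Gm8000* (96.6% identical over 261 bases) and *Gm9847* (100% over 265 bases), had at most 9 counts in a library. Each matched 1 of 14 *Socs2* transcripts. Of the genes whose exons overlap the other members, *Raver2* (*Jak1*, other strand) had at most 20 counts, *Gm17040* (*Cish*, other strand) at most 1, and *Gm17041* (*Cish*), *Gm20489* (*Il2rg*) and *Insl3* (*Jak3*) had 0. The end of 1 of 5 *Jak3* transcripts was 100% identical over 300 bases to that of *Insl3*. How reads of such shared stretches were counted is not given in the sources used here. Few counts of the other genes thus do not show that counts of the members are unaffected. The ratio of *Cish* to *Socs2* overlapped between groups and differed by -0.26 (two-sided exact permutation test, p = 0.257, adjusted 0.257).

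**Figure D3:**
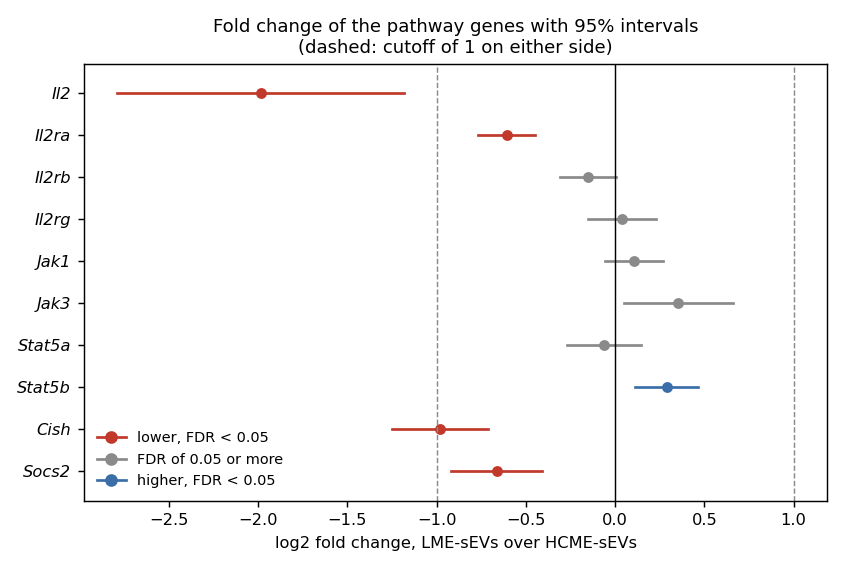
Log2 fold change of each gene, LME-sEVs over HCME-sEVs, with its 95% interval from edgeR (red, lower; blue, higher; gray, FDR of 0.05 or more; dashed lines, the cutoff of 1). *Il2* at -1.98 lies beyond the cutoff, *Cish* at -0.98 lies just short of it, and the intervals of *Il2rb*, *Il2rg*, *Jak1* and *Stat5a* include 0.

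Other genes of the route were read from the same fit, in lists written by hand with earlier results of these data known. Counts over these lists are therefore a description. Of 28 genes that IL-2 and STAT5 are known to induce, 11 fell and 2 rose, beside 5.21% and 3.75% of all tested genes, with a median log2 fold change of -0.20 against 0.01 for all tested genes. The 11 were the inhibitor *Socs1*, the survival gene *Bcl2*, the kinase *Pim1*, the cyclins *Ccnd2* and *Ccnd3*, the cytokines *Osm*, *Lta* and *Ifng*, the granule protease *Gzmb*, the receptor chain *Il12rb1* and the effector factor *Tbx21*. Their log2 fold changes ran from -1.17 for *Lta* (lymphotoxin alpha, 62.8 ± 11.5 CPM, SD, n = 4, against 27.9 ± 3.74 CPM, SD, n = 3) to -0.30 for *Ccnd3*. *Bcl2* averaged 285 ± 32.4 CPM (SD) over 4 HCME-sEV libraries and 197 ± 20.02 CPM (SD) over 3 LME-sEV libraries and fell by 0.53 on the log2 scale (edgeR FDR = 0.00153). *Gzmb* and *Ifng* passed the test although their libraries overlapped between groups.

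The 2 induced genes that rose were *Prdm1*, which encodes the repressor Blimp-1, and *Ctla4*, which encodes an inhibitory receptor. *Prdm1* averaged 9.72 ± 2.17 CPM (SD) over 4 HCME-sEV libraries and 18.3 ± 2.51 CPM (SD) over 3 LME-sEV libraries, a log2 fold change of 0.92 (edgeR FDR = 0.00340). *Ctla4* averaged 120 ± 19.5 CPM (SD) over 4 HCME-sEV libraries and 179 ± 27.2 CPM (SD) over 3 LME-sEV libraries, a log2 fold change of 0.58 (edgeR FDR = 0.00307). The other 15 of the 28, among them *Myc* at -0.01 and *Bcl2l1* at -0.39 on the log2 scale, gave no call. The number of induced genes that fell was 7 without HCME-sEV library 2, 6 without LME-sEV library 1 and 4 without LME-sEV library 2. With scaling by library size alone, 8 fell and 4 rose.

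Of 9 genes that IL-2 is known to hold back, 4 rose and 1 fell, beside 3.75% and 5.21% of all tested genes, with a median log2 fold change of 0.40. *Bcl6*, a repressor that favors memory over effector fate, averaged 8.75 ± 2.69 CPM (SD) over 4 HCME-sEV libraries and 20.2 ± 2.12 CPM (SD) over 3 LME-sEV libraries, a log2 fold change of 1.22 (edgeR FDR = 6.62e-04). *Il7r*, the receptor for the survival cytokine IL-7, averaged 208 ± 28.4 CPM (SD) over 4 HCME-sEV libraries and 297 ± 6.34 CPM (SD) over 3 LME-sEV libraries, a log2 fold change of 0.52 (edgeR FDR = 0.00125). *Tcf7*, a factor of naive and memory T cells, and *S1pr1*, a receptor for egress from lymphoid tissue, had log2 fold changes of 0.50 and 0.63. The count of genes that fell was 0 without LME-sEV library 1 or 3. *Klf2*, *Ccr7*, *Il6ra* and *Il6st* gave no call.

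**Figure D4:**
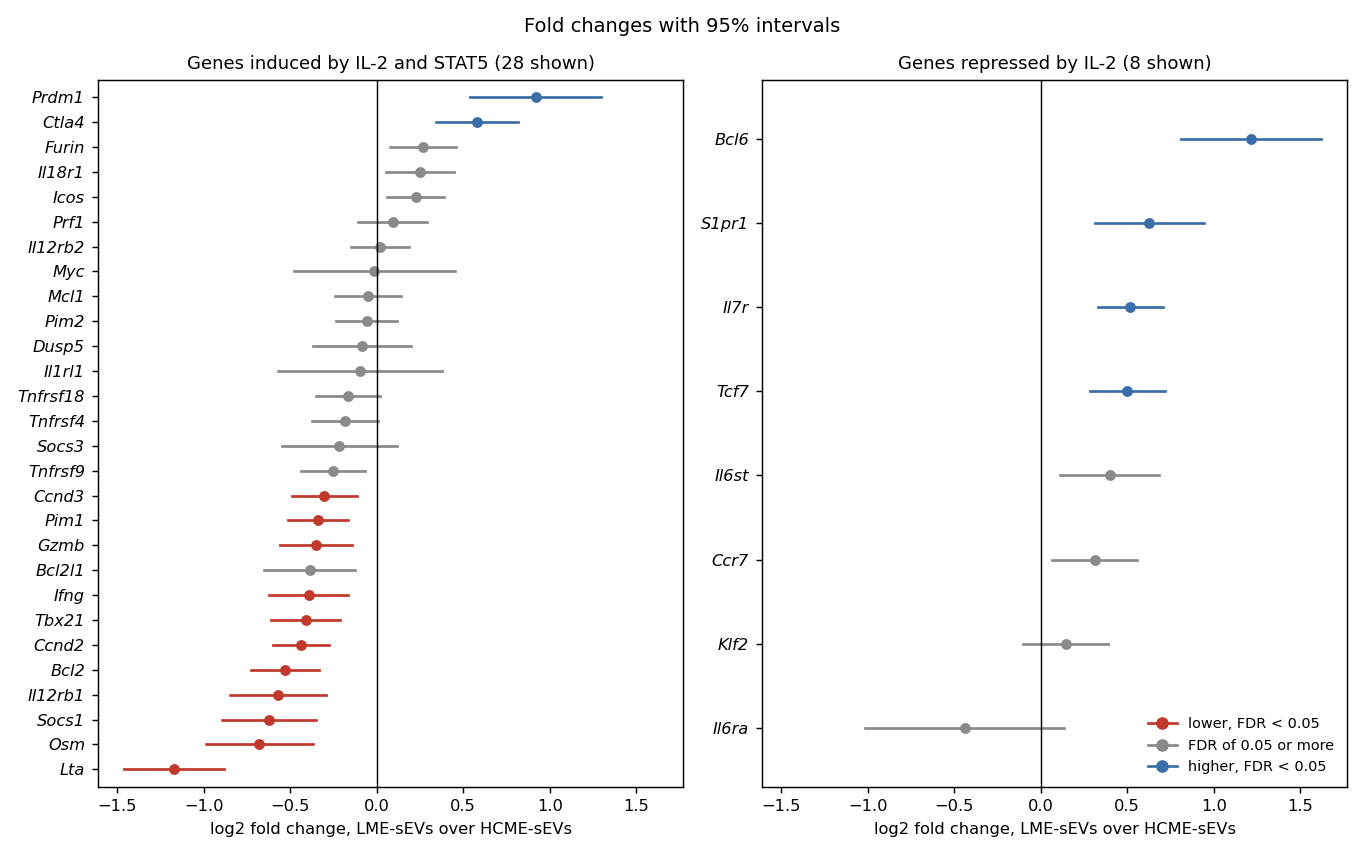
Log2 fold changes, LME-sEVs over HCME-sEVs, with 95% intervals from edgeR for 28 genes known to be induced by IL-2 and STAT5 (left) and 8 of the 9 known to be repressed by IL-2 (right), colored red where lower, blue where higher and gray where the FDR was 0.05 or more. On the left 11 genes are lower and 2 higher, and on the right 4 are higher.

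Receptors and cytokines that use the gamma chain were measured unevenly. Of 10 such genes 5 were tested, of which 2 rose and 0 fell, beside 3.75% and 5.21% of all tested genes. The cytokine genes *Il4*, *Il7*, *Il9*, *Il15* and *Il21* had at most 3 counts in any library. Besides *Il7r*, *Il9r* (receptor for IL-9) rose, with 0, 2, 4 and 2 counts in HCME-sEV libraries and 14, 11 and 16 counts in LME-sEV libraries. Its fitted log2 fold change of 2.57 (edgeR FDR = 0.00615) rests on so few counts that its size is poorly known, and DESeq2 gave it no adjusted p. *Il4ra*, *Il15ra* and *Il21r* gave no call, with log2 fold changes of -0.21, -0.10 and -0.09.

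Calls among the inhibitors and the parallel arms of the receptor were 1 of 16, 0 of 19 and 1 of 16, near the 5.21% lower and 3.75% higher of all tested genes. Of 16 phosphatases and inhibitors of JAK-STAT signaling, a list without the inhibitors *Cish* and *Socs2* that fell, *Socs1* alone passed. It averaged 89.9 ± 18.6 CPM (SD) over 4 HCME-sEV libraries and 58.1 ± 4.95 CPM (SD) over 3 LME-sEV libraries, a log2 fold change of -0.62 (edgeR FDR = 0.00529). Without HCME-sEV library 3 the list had 2 lower calls, and without HCME-sEV library 4 it had 1 higher call. None of 19 genes of the PI3K-AKT-mTOR arm passed in edgeR, DESeq2 or limma-voom, with 4 at an unadjusted p under 0.05, whereas edgeR called 1 higher without HCME-sEV library 4 or with scaling by library size alone. Of 16 genes of the SHC-RAS-ERK arm 1 passed, the GTPase *Hras*, which averaged 44.3 ± 1.02 CPM (SD) over 4 HCME-sEV libraries and 29.3 ± 1.16 CPM (SD) over 3 LME-sEV libraries and fell by 0.60 on the log2 scale (edgeR FDR = 0.00148). No gene of this arm was called higher, but 1 was without HCME-sEV library 3 or 4, without the count filter or with upper-quartile scaling. With scaling by library size alone 2 were called higher. The median log2 fold changes of these lists were -0.04, 0.05 and 0.02. Among 7 other JAK and STAT genes *Stat3* alone passed. It averaged 524 ± 25.6 CPM (SD) over 4 HCME-sEV libraries and 736 ± 67.0 CPM (SD) over 3 LME-sEV libraries, a log2 fold change of 0.49 (edgeR FDR = 6.41e-04).

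Factors that act on the *Il2* promoter moved in both directions. Of 20 such genes 19 were tested, and 2 fell and 2 rose, beside 5.21% and 3.75% of all tested genes, with a median log2 fold change of 0.02. *Fosl1*, a subunit of AP-1, had 5.87 ± 1.93 CPM (SD, n = 4) against 2.02 ± 0.839 CPM (SD, n = 3), a log2 fold change of -1.58 (edgeR FDR = 0.00928), and its call was lost without LME-sEV library 2 (FDR = 0.0703) or 3 (FDR = 0.0605). *Crem*, a repressor of *Il2* transcription, fell by 0.36 on the log2 scale (edgeR FDR = 0.0253). *Ets1*, an activator, and *Prdm1*, a repressor, had log2 fold changes of 0.41 (edgeR FDR = 0.0212) and 0.92. The number of these factors that fell was 1 without HCME-sEV library 1 or 2 or LME-sEV library 1 or 2, and 0 without LME-sEV library 3. The number that rose was 1 without HCME-sEV library 2 or LME-sEV library 2 or 3. Of 9 RNA-binding proteins that act on *Il2* mRNA, none passed in edgeR, DESeq2 or limma-voom, with 1 at an unadjusted p under 0.05.

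Genes whose level ran most like that of *Il2ra* or *Cish* over the 7 libraries were sought among the 7848 genes whose mean count was 50 or more. Since all 7 libraries enter, the difference between the groups is part of each correlation. Nearest to *Il2ra* were *Mapkapk3* (Pearson r = 0.991), *Papola* (0.991), *Lta* (0.990), *Gm23639* (0.989) and *Myl10* (0.989). Nearest to *Cish* were *Timm50* (0.995), *Nol8* (0.993), *Eif6* (0.992), *Tatdn2* (0.989) and *Mrpl18* (0.989). These 10 had lower means with LME-sEVs, and in edgeR *Papola* did not pass (FDR = 0.134) while *Nol8* passed narrowly (FDR = 0.0495). Between the 2 genes themselves r was 0.941.

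The libraries had the RNA of CD8+ T cells. The summed level of 8 T-cell and CD8 markers was 2349 to 2432 CPM with HCME-sEVs and 2490 to 2793 CPM with LME-sEVs. In edgeR 2 of the 8, *Cd3e* and *Cd3g*, rose by log2 fold changes of 0.36 and 0.49, beside 3.75% of all tested genes. The libraries of *Cd3g* overlapped between groups, and DESeq2 called 1 of the 8 and limma-voom 2. Of 4 markers of CD4 T cells and Tregs, *Cd4* had at most 3 counts and *Foxp3* at most 1, while *Zbtb7b* rose (log2 fold change 0.87, edgeR FDR = 0.0241), and their sum was 6.26 to 14.4 CPM against 15.3 to 17.3 CPM. Of 7 B-cell markers 2 were tested and gave no call (0 at an unadjusted p under 0.05, and 0 in DESeq2 and limma-voom), with sums of 5.07 to 8.36 CPM against 5.65 to 7.64 CPM. The 2 NK-cell markers summed to 0.466 to 1.93 CPM against 0.225 to 0.538 CPM and the 6 myeloid markers to 0.800 to 2.89 CPM against 1.80 to 4.04 CPM, all too few to test.

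Some markers of rarer blood cells rose with LME-sEVs, while others gave no call and the summed levels overlapped between groups. Of 9 markers of basophils, mast cells and eosinophils 7 were tested and 3 rose (*Mcpt8*, *Prg2* and *Kit*, with log2 fold changes of 1.43, 3.92 and 0.96), with sums of 16.9 to 43.6 CPM with HCME-sEVs and 40.7 to 63.1 CPM with LME-sEVs. Of 7 erythroid and platelet markers 6 were tested and 3 rose (*Hba-a1*, whose reads can be confused with those of *Hba-a2*, *Pf4* and *Ppbp*, with log2 fold changes of 0.90, 0.81 and 0.89), with sums of 71.8 to 175 CPM and 150 to 197 CPM. In DESeq2 1 gene of the former list and 0 of the latter were called, and in limma-voom 3 of each, beside 3.75% of all tested genes called higher in edgeR. The other 4 tested genes of the former list gave no call (*Cpa3*, *Fcer1a*, *Gata2* and *Hdc*, with log2 fold changes of -0.26, 0.37, 1.18 and 0.36). Likewise 3 of the latter gave none (*Hbb-bs*, *Hbb-bt* and *Hba-a2*, with -0.01, 0.45 and 0.45). Counts in a library reached 71 for *Mcpt8*, 41 for *Prg2* (0 in the lowest library) and 524 for *Pf4*, and at most 2 for *Epx* and *Alas2*. The part of these cells in the differences of the IL-2 genes was not tested.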

How the data were processed

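The authors sequenced QuantSeq 3′ libraries with unique molecular identifiers (UMIs), trimmed reads (cutadapt 2.10), aligned them to GRCm38 (STAR 2.5.3a), removed PCR copies by UMI (UMI-tools 1.0.0) and counted genes with featureCounts (Subread 2.0.0). The deposited values are whole-number counts per gene symbol in 7 libraries, unfiltered and not normalized. Each count stands for a captured 3′ end, so gene length does not enter and near-identical 3′ ends can be confused. The annotation release and the strand setting are not given in the sources used here.

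Libraries were grouped by the treatment in the sample annotation. Genes whose mean count over the libraries was 5 or more were TMM-normalized and tested with the quasi-likelihood test of edgeR 4.0.16 (R 4.3.3) with no covariate, adjusted by Benjamini and Hochberg over all 12623 genes. The procedure was first tested on simulated data. Log2 CPM for ratios and permutation tests used a prior count of 2. Counts of replicates of 1 group differed by more than counting noise in every pair (chi-square per degree of freedom 2.12 to 6.13). Alternatives were DESeq2 1.42.0, limma-voom (limma 3.58.1), other filters and scalings, another prior count for the ratios, a replicate block and leaving out each library. Intervals of fold changes include the spread between libraries, and the floor of 3 counts covers counting error only.

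The members and lists were chosen with earlier results of these data known. The text names the 10 members, in each other list the 2 called genes with the smallest FDR in each direction, the 5 genes most like *Il2ra* and the 5 most like *Cish* by Pearson r, and *Ntan1*. Further list genes and markers were named after their values were seen. Of the genes this rule names, 1 in the list repressed by IL-2 is counted there but not reported by name or value here. The lists share *Socs1*, *Socs3*, *Prdm1* and *Il7r*. Coordinates are of GENCODE vM21 on GRCm38, and overlapping exons were searched for the members only. The last 300 bases of transcripts were compared with blast 2.17.0 at 95% identity over at least 200 bases. Analyses in Python 3.11.15 used numpy 2.4.6 and pandas 2.3.3, and plots used matplotlib 3.10.9.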

Additional observations from a re-analysis of the deposited data

Results flagged for a closer look

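Dixon's test asked whether the highest or lowest of the 4 HCME-sEV libraries stood apart, by its gap to the nearest library over the range of the group. Of 39 items tested, 2 were past the 95% critical value, where chance gives about 1.95. Both were levels of genes outside the 10 of the IL-2 route. *Il7r* was highest in HCME-sEV library 3, with 249.9 CPM against 188 to 197 CPM in the other libraries (ratio 0.857), so this library was the one of its group nearest to the LME-sEV libraries. *Stat3* was highest in HCME-sEV library 4, with 562 CPM against 507 to 516 CPM in the other libraries (ratio 0.831).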

How the results depend on the processing

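The count of 4 of the 10 genes lower held in each of the 15 alternatives, *Il2*, *Il2ra*, *Cish* and *Socs2* being called in all of them. The count of genes higher, 1 in the test as reported, was 2 with the replicate number as a block and 0 to 1 with each library left out. The number of genes called, 1131 as reported, was 391 to 1305 with each library left out (723 without HCME-sEV library 2, 391 without LME-sEV library 2 and 458 without LME-sEV library 3), and 890 to 1172 under the other filters, scalings and tools. Of 150 alternative values for the 10 genes, 142 kept direction and call, 5 lost the call (all *Stat5b*), 1 gained it and 2 changed sign. Those were *Il2rg*, at -0.035 without HCME-sEV library 2 (-0.035 to 0.12 with each library left out), and *Stat5a*, at 0.0070 without HCME-sEV library 1 (-0.11 to 0.0070), neither called. The cause was not tested. Of 359 values for the 24 other genes chosen by the naming rule 32 lost the call and none changed sign, and DESeq2 gave *Il9r* no adjusted p. The lost calls were most frequent for *Nol8*. Of 270 counts over the lists 29 moved by over 1.5 times.

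Samples with the same number in both groups correlated by 0.0721, 0.155 and 0.0268 in their deviations from the group means, not over 0.1 in every pair, and not every library correlated best with its own number, so the numbers were not taken to pair the samples. With the replicate block 1454 genes were called, and *Jak3* joined the higher genes (log2 fold change 0.46, edgeR FDR = 0.0453), while 1 gene of the PI3K-AKT-mTOR arm was lower and 1 higher and 2 of the SHC-RAS-ERK arm were higher.

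With 2 to 27 counts of *Il2* in a library, counting error is a large part of its spread, and the size of its change is known less well than that of *Il2ra* or *Cish*. Groups of 4 and 3 libraries set the smallest exact permutation p at 0.0286. Genes under the minimum of 5 counts were not tested. RNA levels were measured, not receptor protein, phosphorylation or secreted IL-2.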
